A study of Homo sapiens with 8 samples.

Results

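The report concerns 49 genes whose signal was lower after depletion of the leukaemic fusion protein RUNX1/ETO from the first array on and stayed lower for 10 days. RUNX1/ETO arises from the t(8;21) translocation of acute myeloid leukaemia, which joins the DNA-binding part of the transcription factor RUNX1 to the corepressor ETO, encoded by RUNX1T1. The genes were chosen by measured values: a probe with a single gene symbol, above 5.9 on at least 2 of the 8 arrays, and at least 0.6 lower on the log2 scale with the fusion siRNA than with the control at each of 48, 96, 168 and 240 h. This gave 57 probes of 49 genes, out of 47230 probes on the array, 14644 above the cut-off and 11497 of these with a gene symbol. Of 82 probes past the fall and above the cut-off, 7 had no single symbol, and 18 probes of 13 genes were left out by name. The share of all probes above the cut-off that passed the fall was 0.56%, and because these values chose the genes, no test is given for their siRE minus siMM differences.

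The cells were Kasumi-1, an established human myeloid leukaemia line with this translocation. Electroporation delivered either an siRNA directed at the fusion transcript (siRE) or a mismatch siRNA (siMM), at 200 nM in both cases, and both arms had 1, 1, 2 and 3 electroporations by 48, 96, 168 and 240 h. There were 8 Illumina bead arrays, 4 per arm, with 1 array per arm and time, so no single time has a replicate. The labels do not say whether the times of an arm were separate cultures, so a p-value measures the spread between these arrays. Precision is limited by having only 8 arrays. Values are log-scale values normalized by the authors and are read here as log2. A variance-stabilised scale is also possible, in which case the folds would not hold. No array was taken before 48 h.

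RUNX1T1, the part of the fusion that names the target, was lower in siRE at 1 probe (ILMN_1812795), with differences of -1.34, -1.43, -1.29 and -1.47 at the 4 times (limma mean difference -1.38, adjusted p = 0.000197). Its other probe above the cut-off (ILMN_1724669) differed by 0.28 (limma adjusted p = 0.261). Of 7 myeloid blast markers on the array, 6 were above the cut-off on all 8 arrays, and the PTPRC probe was on none. In this list CD34 fell (-1.87, limma adjusted p = 0.00958) and the granulocytic factor CEBPA rose (0.85, limma adjusted p = 0.00399), and their part in the results below was not tested. Of 10 T and NK cell markers 0 to 3 were above it on an array. For B cell, erythroid and megakaryocyte markers the number was 1 to 2 of 7 each, with HBB, HBA1, HBA2, CD3E, MS4A1, PF4 and VWF on no array. Of 7 monocyte and macrophage markers 2 were above it on every array, with CD14 and CD163 on none. The mean level of this last list was 5.94 to 6.12 in siMM and 6.0 to 6.48 in siRE, and its member CSF1R rose (0.98, limma adjusted p = 0.00475), whose part in the falls was not tested. In cultures of this kind, fewer cells of a type and less RNA per cell cannot be told apart.

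As background, RUNX1/ETO sits on DNA at RUNX motifs, often with ETS and AP-1 family factors, and is known both to repress genes of myeloid maturation and to keep other genes active. The genes described here span cell adhesion and the actin skeleton, surface and secreted proteins, brakes on growth signalling, transcription factors, the cell cycle and metabolism. The roles below were assigned after the values were seen, and no role group was tested.

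Among the 49 genes, each represented by the chosen probe with the deepest mean difference, the median difference was -0.84 at 48 h, -0.98 at 96 h, -1.31 at 168 h and -1.60 at 240 h. With values below the cut-off set to 5.9, since such values carry no order, these medians were -0.80, -0.88, -0.99 and -1.24. The median of all 14644 probes, as deposited, stayed between -0.01 and -0.06. Differences of 1 or more below the control were present for 17 genes at 48 h, 24 at 96 h, 33 at 168 h and 39 at 240 h. Differences of 2 or more were present for 0, 2, 7 and 17 genes at these times. Both sets of counts rest in part on siRE values under the cut-off. With values set to the cut-off the lowest difference at 96 h was -1.96. At 240 h, for example, MMP28 then moved from -2.47 to -1.57 and MEF2C from -2.70 to -1.58. The deepest of the 4 differences was at 240 h for 31 genes, at 168 h for 13, at 96 h for CAVIN1, ABHD4, TRIM8 and POLE, and at 48 h for GPX1. With values set to the cut-off these counts were 27, 12, 6 and 4. In 45 genes the difference was deeper at 240 h than at 48 h, and in ARC, CYP46A1, GPX1 and CCM2 it was shallower. With values set to the cut-off, 43 were deeper and 6 shallower at 240 h. Read that way the difference deepened at every step in 7 genes, FAM171A1, ARHGEF3, PLCXD1, ECM1, QPRT, CSRP2 and JUP, and 10 genes did so in the values as deposited, which add MMP28, SLC45A3 and CCND1. Among genes above the cut-off on at least 3 siRE arrays, it stayed within a span of 0.5 in TRIM8, GPX1, SEPTIN5, SLC25A4, SNHG15, GNPTAB, ADRM1 and CCM2.

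**Figure D1:**
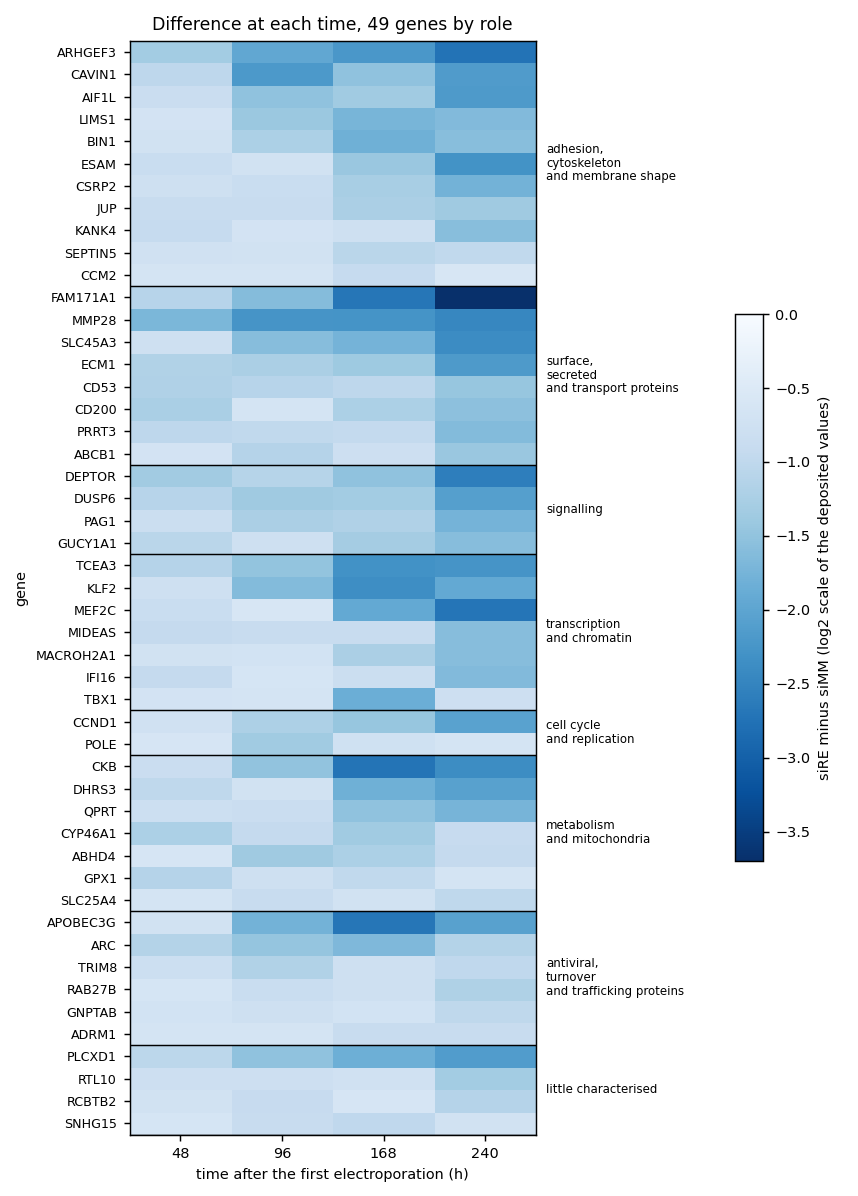
Each cell of the map is the difference siRE minus siMM of 1 gene at 1 time, on the log2 scale of the deposited values, with genes as rows grouped by role and hours after the first electroporation as columns. Darker cells are deeper differences, from -0.60 at the rule's edge to -3.69 for FAM171A1 at 240 h, where siRE was under the cut-off, and the columns darken from 48 to 240 h in most rows.

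Every siMM array exceeded every siRE array for 54 of the 57 probes and 47 of the 49 genes. Over all tested probes 5.11% had siRE wholly below siMM, a share from which nothing is read here because the rule used these arrays. The arms overlapped for KLF2, for DHRS3 and for the second APOBEC3G probe, whose control values moved between times by more than the difference at some times. At the edge of the rule, the members nearest the limit were MEF2C (-0.60 at 96 h), CCM2 (-0.61 at 240 h), POLE (-0.61 at 48 h), RCBTB2 (-0.61 at 168 h) and ABHD4 (-0.62 at 48 h). Just outside it were NTSR1 (-0.60 at 96 h), INA (-0.59 at 48 h) and, all at 48 h, RPTOR (-0.58), ARRB1 (-0.58) and RANBP2 (-0.58).

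Of the surface, secreted and transport proteins, 8 genes in all, the median of the mean difference was -1.34. In the values as deposited the deepest time was 240 h in all 8, but MMP28, CD53, PRRT3 and ABCB1 had no siRE array above the cut-off. With values set to 5.9 the deepest time was 96 h for MMP28 and 48 h for PRRT3 and ABCB1. FAM171A1, a little-characterised transmembrane protein (chr10:15211643-15374554, GRCh38.p14), read 8.63, 8.67, 8.46 and 8.72 in siMM at 48, 96, 168 and 240 h and 7.54, 7.07, 5.77 and 5.02 in siRE. The control was level while each later siRE array was lower than the one before, with a mean difference of -2.27 ± 1.16 (SD, n = 4 times). The last 2 siRE arrays were under the cut-off, and with them set to 5.9 the mean was -2.02, at least 4.05-fold lower. MMP28, a secreted matrix metalloprotease (chr17:35756249-35795641), read 7.05, 7.76, 7.62 and 7.47 in siMM and 5.36, 5.50, 5.35 and 5.0 in siRE. No siRE array exceeded the cut-off at either of its 2 probes, so MMP28 was at least 2.98-fold lower by the first and at least 1.80-fold by the second. SLC45A3, a solute carrier best known from prostate, read 7.14, 7.40, 7.40 and 7.62 in siMM and 6.37, 5.80, 5.63 and 5.24 in siRE. ECM1, an extracellular matrix glycoprotein, read 7.84, 7.64, 7.56 and 7.68 in siMM and 6.68, 6.41, 6.18 and 5.51 in siRE. The arms of these 2 genes were apart at every time, which the rule required. At 240 h the difference was -2.39 for SLC45A3 and -2.17 for ECM1, with siRE under the cut-off.

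The other 4 surface genes were CD53, CD200, PRRT3 and ABCB1. CD53, a tetraspanin of white blood cells, had a mean difference of -1.19 ± 0.19 (SD, n = 4 times) and -1.18 ± 0.22 at its 2 probes. At the first every siRE array was under the cut-off, which bounds CD53 at 1.38-fold or more lower, and at the second 3 of the 4 were. CD200, a surface glycoprotein that restrains myeloid cells through its receptor, read 8.16 to 8.53 in siMM and 6.62 to 7.44 in siRE, with a mean difference of -1.16 ± 0.37. PRRT3, a proline-rich membrane protein, was at least 1.70-fold lower, with every siRE array under the cut-off. ABCB1, the drug efflux pump P-glycoprotein, was dim in both arms. Its probes read 5.45 to 6.38 in siMM and 4.59 to 5.62 in siRE, none of the siRE arrays was above the cut-off, and the mean differences of -1.0 and -0.92 rest on values near background.

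**Figure D2:**
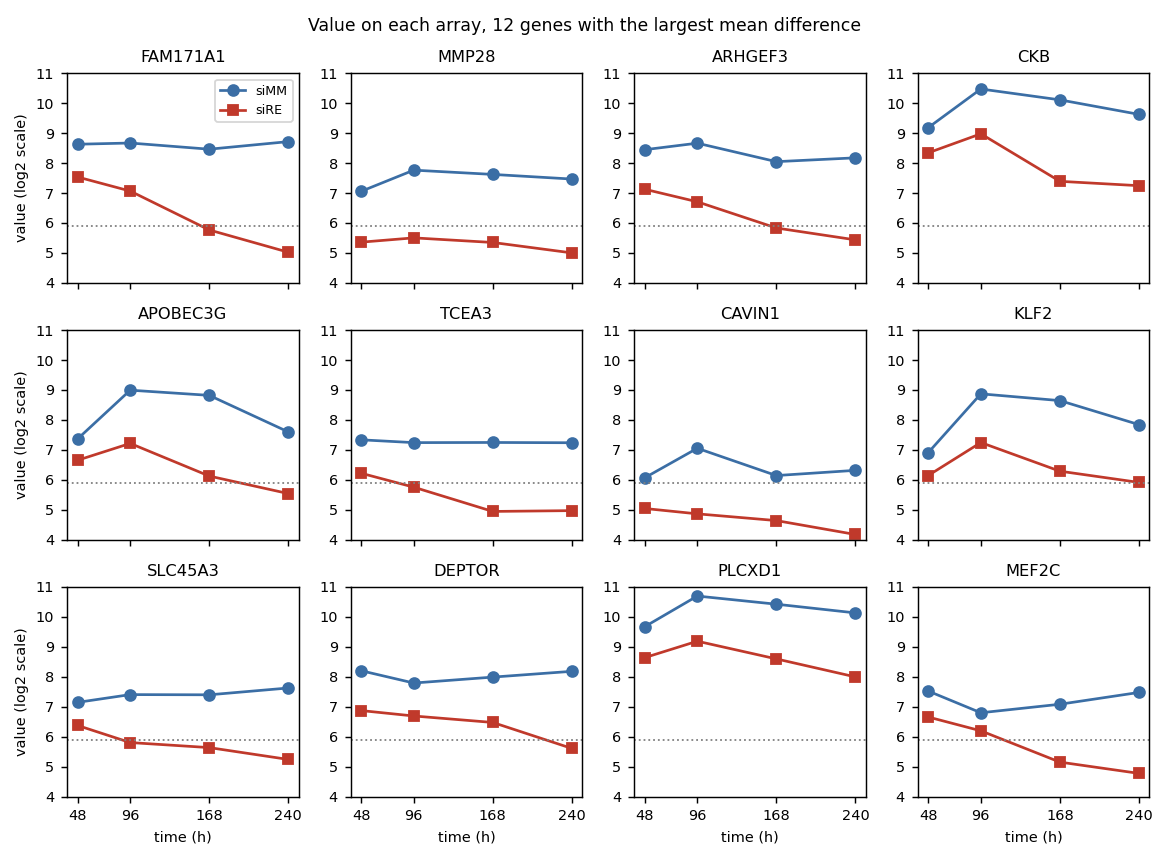
Each panel shows the value of 1 gene on all 8 arrays, with hours after the first electroporation on the horizontal axis, the value on the log2 scale on the vertical axis, siMM as circles, siRE as squares and the cut-off of 5.9 as a dotted line. Control values of FAM171A1 and TCEA3 were level while those of CKB, APOBEC3G and KLF2 were highest at 96 h, and siRE values began above 5.9 and ended below it in FAM171A1, ARHGEF3, APOBEC3G, TCEA3, SLC45A3, DEPTOR and MEF2C.

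Genes of adhesion, the cytoskeleton and membrane shape were the most numerous, with 11 members and a median mean difference of -1.32. ARHGEF3, an exchange factor that activates the GTPase RhoA (chr3:56727420-57079268), read 8.45, 8.66, 8.05 and 8.17 in siMM and 7.13, 6.71, 5.83 and 5.44 in siRE. Its difference deepened from -1.32 to -2.74, a mean of -2.06 ± 0.59 (SD, n = 4 times), and at least 3.80-fold with its last 2 siRE arrays set to 5.9. CAVIN1, a coat protein of caveolae, read 6.07, 7.05, 6.14 and 6.32 in siMM and 5.04, 4.86, 4.64 and 4.17 in siRE. It was above the cut-off on every siMM array and no siRE array, which bounds it at 1.41-fold or more lower. AIF1L, an actin-bundling protein, read 9.46, 9.73, 9.38 and 9.54 in siMM and 8.62, 8.22, 8.02 and 7.36 in siRE, and its second probe had a mean difference of -1.24 against -1.47 at the first.

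LIMS1 (PINCH), an adaptor of the integrin-linked kinase complex, read 10.36 to 10.91 in siMM and 8.81 to 9.69 in siRE (mean difference -1.36 ± 0.48). A near-identical copy of part of LIMS1 exists in the genome, so its probes cannot be assigned to it with certainty. BIN1, which bends membranes, had mean differences of -1.33 and -1.18 at its 2 probes. ESAM, an immunoglobulin-type adhesion molecule of endothelial and stem cells, read 7.09 to 7.45 in siMM and 5.16 to 6.46 in siRE. Its difference reached -2.29 at 240 h, where siRE was under the cut-off, or -1.55 with values set to 5.9. JUP (plakoglobin), a junction protein related to beta-catenin, read 9.43 to 9.98 in siMM and 8.20 to 9.09 in siRE. The LIM-domain protein CSRP2 (-1.17), the ankyrin-repeat protein KANK4 (-0.99), the filament GTPase SEPTIN5 (-0.87) and the junction scaffold CCM2 (-0.71) completed the group. With values set to 5.9 CSRP2 had -0.86 and KANK4 -0.90. In all 11 genes the arms did not overlap, as in 47 of the 49 genes. Nothing is read from this because the rule used these arrays.

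All 4 signalling genes act as brakes, anchors or second-messenger enzymes, and their median difference moved from -1.08 at 48 h to -1.92 at 240 h. DEPTOR, an inhibitory subunit of the kinase mTOR (chromosome 8), read 8.20, 7.79, 7.99 and 8.18 in siMM and 6.87, 6.69, 6.47 and 5.61 in siRE. DUSP6, the phosphatase that switches off ERK, read 10.70, 10.69, 10.40 and 10.27 in siMM and 9.61, 9.32, 9.07 and 8.17 in siRE. Both genes had a second probe past the rule, at -1.28 for DEPTOR and -1.33 for DUSP6. PAG1, a membrane adaptor that anchors the kinase CSK, had a mean difference of -1.25 ± 0.39 (SD, n = 4 times). GUCY1A1, a subunit of the nitric oxide receptor guanylate cyclase, had -1.18 ± 0.36. PAG1 and GUCY1A1 were each above the cut-off on only 1 siRE array, and with values set to 5.9 their means were -0.82 and -0.92.

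Among 7 genes of transcription and chromatin, TCEA3, an elongation factor of the TFIIS family, read 7.34, 7.24, 7.25 and 7.24 in siMM and 6.22, 5.75, 4.94 and 4.97 in siRE. Control arrays of TCEA3 were within 0.10 of each other, and only the 48 h siRE array was above the cut-off. With values set to 5.9 its mean difference moved from -1.79 to -1.29. Its differences at 96, 168 and 240 h were then level, at -1.34, -1.35 and -1.34. KLF2, a zinc-finger factor of quiescent lymphoid and endothelial cells, read 6.90, 8.87, 8.64 and 7.84 in siMM and 6.14, 7.24, 6.29 and 5.91 in siRE. Its lowest control array, at 48 h, was under its highest siRE array, at 96 h, so the arms overlapped although the difference was -0.76 to -2.36 at matched times. MEF2C, a MADS-box factor used in muscle, lymphoid and leukaemic progenitor cells, read 7.52, 6.80, 7.08 and 7.48 in siMM and 6.66, 6.19, 5.15 and 4.77 in siRE. The MEF2C difference was near the limit at 96 h (-0.60) and deep at 168 h (-1.93) and 240 h (-2.70). Its siRE arrays at 168 and 240 h were under the cut-off, and with values set to 5.9 these 2 differences were -1.18 and -1.58.

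The remaining transcription and chromatin genes had mean differences close to -1. MIDEAS, the scaffold of a mitotic histone deacetylase complex, had -1.07 ± 0.35 (SD, n = 4 times), and the histone variant gene MACROH2A1 had -1.06 ± 0.44. IFI16, a nuclear sensor of DNA, had -1.01 ± 0.45, with its deepest difference of -1.65 at 240 h. TBX1, a T-box developmental factor, had -0.99 ± 0.57, with differences of -0.67, -0.65, -1.85 and -0.79 at the 4 times.

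The cell cycle pair was CCND1 and POLE. CCND1 (cyclin D1), which drives the step from growth into DNA synthesis, read 6.96, 6.95, 6.6 and 7.14 in siMM and 6.23, 5.74, 5.15 and 5.10 in siRE. Only the 48 h siRE array was above the cut-off, so the later differences, to -2.04 at 240 h, rest on values near background. POLE, the catalytic subunit of DNA polymerase epsilon, read 9.01 to 9.93 in siMM and 8.41 to 8.74 in siRE, and its difference was deepest at 96 h (-1.35).

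Of 7 metabolic and mitochondrial genes, CKB, the brain-type creatine kinase that buffers ATP, had the deepest mean difference, -1.86 ± 0.85 (SD, n = 4 times), or 3.63-fold. It read 9.18, 10.47, 10.11 and 9.63 in siMM and 8.34, 8.98, 7.39 and 7.24 in siRE, so the 96 h arrays were the highest of both arms. DHRS3, which reduces retinal to retinol, read 8.15, 8.67, 8.43 and 7.74 in siMM and 7.14, 7.96, 6.62 and 5.68 in siRE. Its 240 h control array was below the 96 h siRE array, while at matched times the difference was -0.71 to -2.06. QPRT, an enzyme of NAD synthesis, deepened from -0.80 to -1.74. CYP46A1, the cholesterol hydroxylase of brain, was at least 1.74-fold lower, again with every siRE array under the cut-off. The lipase ABHD4 had a mean difference of -1.04, the antioxidant selenoenzyme GPX1 of -0.87 and the mitochondrial ADP/ATP carrier SLC25A4 of -0.81. GPX1 read 11.50 to 11.83 in siMM and 10.53 to 10.88 in siRE, far above the cut-off in both arms.

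In the mixed group of antiviral, turnover and trafficking proteins, APOBEC3G, a cytidine deaminase that restricts retroviruses, read 7.36, 8.99, 8.82 and 7.60 in siMM and 6.65, 7.22, 6.13 and 5.54 in siRE. Its control arrays at 96 and 168 h stood more than 1 above those at 48 and 240 h, and its mean difference was -1.81 ± 0.83 (SD, n = 4 times) at this probe and -1.53 ± 1.17 at the other. APOBEC3 genes are close paralogs, so a part of this signal may be shared between them, which the files do not resolve. ARC, known in neurons as an activity-regulated gene with a capsid-like protein, was dim, with 5.71 to 6.28 in siMM and 4.58 to 4.83 in siRE, and was at least 1.09-fold lower. TRIM8, a ubiquitin ligase, read 8.76 to 9.54 in siMM and 7.99 to 8.56 in siRE. RAB27B, a GTPase of secretory granules, GNPTAB, which builds the sorting tag of lysosomal enzymes, and ADRM1, a ubiquitin receptor of the proteasome, had mean differences of -0.86, -0.79 and -0.77. Their SDs over the 4 times were 0.24, 0.15 and 0.13. All siMM arrays exceeded all siRE arrays, from which nothing is read because the rule used these arrays.

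Among 4 little-characterised genes, PLCXD1, a phospholipase-domain protein on chromosome X, read 9.67, 10.70, 10.42 and 10.13 in siMM and 8.64, 9.19, 8.60 and 8.00 in siRE. Its difference went from -1.03 at 48 h to -2.14 at 240 h. RTL10, a retrotransposon-derived gene, had a mean difference of -0.90, the BTB-domain gene RCBTB2 of -0.83 and the long noncoding RNA SNHG15, a host of small nucleolar RNA, of -0.81. SNHG15 was the single noncoding gene, since the other 48 are protein coding.

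The change over days within an arm was not itself part of the rule and was tested. The rule asked for low siRE values on the same arrays, so the shares of members below are not free of that choice, and nothing is read from their distance to the shares of all probes. A slope on day (days 2, 4, 7 and 10) was fitted per arm with limma over all 14644 probes. In siMM, 0 of the 57 probes had a slope past the adjusted threshold and 0 had an unadjusted p under 0.05, with 31 negative and 26 positive slopes. Over all probes 0% were called falling and 0% rising in siMM (271 had an unadjusted p under 0.05). In siRE, 9 of the 57 probes fell with day and 0 rose, against 1% falling and 1.01% rising of all tested probes. Negative slopes were present at 52 of the 57 probes, with a median of -0.092 per day against -0.0069 over all tested probes, of which 54.5% were negative. The positive slopes were those of TRIM8, GPX1, POLE, SNHG15 and CCM2, none past the threshold.

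FAM171A1 had the steepest of these slopes, -0.33 per day (SE 0.033, limma adjusted p = 0.000358), against 0.0025 per day in siMM. MEF2C fell (-0.25 per day, limma adjusted p = 0.0128), as did ARHGEF3 (-0.22, limma adjusted p = 0.00781). DUSP6 fell at both probes (-0.17 and -0.19 per day, limma adjusted p = 0.0227 each). The slopes of TCEA3 (-0.17), AIF1L (-0.15), ECM1 (-0.14) and CSRP2 (-0.14) also passed, at adjusted p-values of 0.0344, 0.0434, 0.0464 and 0.0399. ESAM (-0.15, limma adjusted p = 0.0529) and DEPTOR (-0.15, limma adjusted p = 0.0551) did not pass. Leaving out the 96 h arrays left 3 called probes, leaving out those of 168 h left 5 and those of 240 h left 2, while 9 were called without 48 h. With all values below 5.9 set to 5.9 only 1 was called. The difference between the slopes of the arms was not tested, since it belongs to the contrast that chose the genes.

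**Figure D3:**
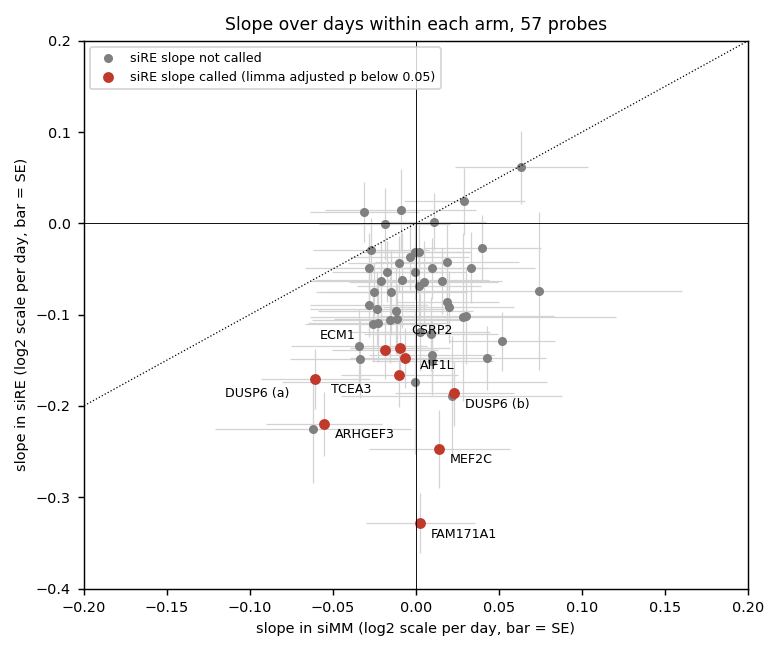
Each point is 1 of the 57 probes, with its slope over days in siMM on the horizontal axis and in siRE on the vertical axis, both on the log2 scale per day with bars of 1 SE, and the dotted line marks equal slopes. The 9 called probes (red, DUSP6 with its probes a and b) lie at siRE slopes of -0.14 to -0.33 while their siMM slopes lie between -0.06 and 0.02.

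In siRE the 240 h array was the lowest of its arm for 34 of the 49 genes and the 48 h array the highest for 27. Over all 14644 tested probes these counts were 4935 (33.7%) and 4586. This is a description of arrays that also chose the genes. The control arm of a subset rose in the middle of the course. In 14 genes siMM values at 96 and 168 h both exceeded those at 48 and 240 h. The share was 28.6% of the 49 genes, against 21.9% of all tested probes. The 14 genes were MMP28, CKB, APOBEC3G, KLF2, PLCXD1, DHRS3, ARC, ABHD4, TBX1, KANK4, RTL10, SEPTIN5, POLE and SNHG15. The median range over the 4 times was 0.49 in siMM and 0.89 in siRE for the 49 genes. For all tested probes it was 0.42 and 0.56.

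Probes that the rule did not choose gave a second reading of some genes. The 49 genes had 33 further probes, 21 of them above the cut-off for 15 genes, and 17 of the 21 were lower in siRE at all 4 times, as were 16.7% of all tested probes. Their median mean difference was -0.71. Lower here means any difference below the control, not the rule's fall of 0.6 at each time. At 48 h another probe of ECM1 (-0.05) and of GUCY1A1 (-0.12) was near the control. Another probe of ADRM1 (-0.83), of CCM2 (-0.91) and of JUP (-0.82) was more than 0.6 lower at 48 h. TBX1 had deeper mean differences at its other probes, -1.50 and -1.14, which missed the rule at 48 h with -0.31 and -0.32. CCM2 likewise had a probe at -1.48, whose difference reached -2.54 at 240 h. SNHG15 had -0.74 at a second probe, which moved from -0.15 at 48 h to -1.23 at 240 h, in contrast to the level difference of the chosen probe. These readings share the arrays and RNA with the chosen probes, so they were not tested as independent evidence.

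For 4 genes the probes disagreed in the mean difference over the 4 times. MACROH2A1 had -1.06 at the chosen probe, which read 6.4 to 7.09 in siMM, but its 3 other probes, with siMM means of 7.95, 11.75 and 13.16, had differences of -0.04, -0.52 and -0.40. A second LIMS1 probe had -0.92, while the third, with means of 5.9 and 5.86 at the cut-off, had -0.04. RCBTB2 had a second probe at 0.01 and SEPTIN5 at -0.14, both also near the cut-off. The files do not say which transcripts each probe reads.

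**Figure D4:**
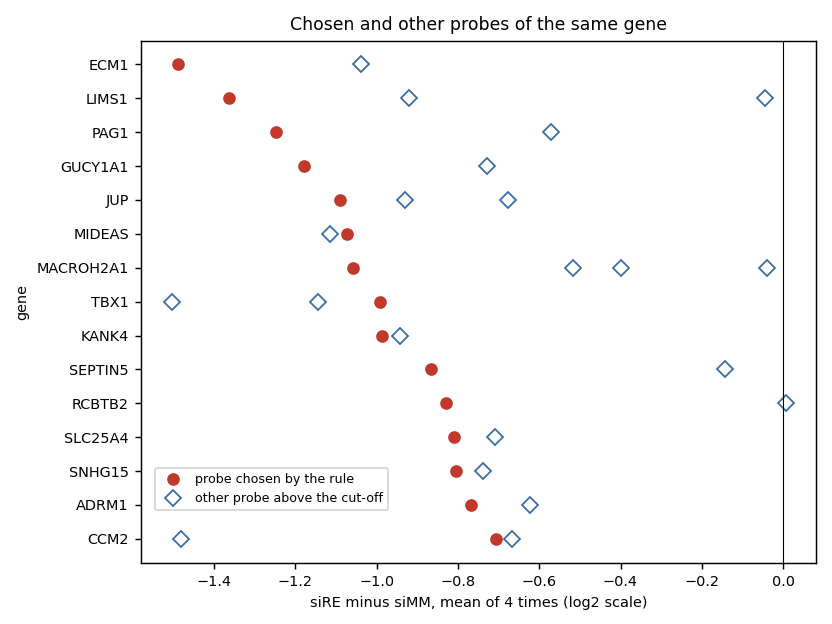
The mean difference siRE minus siMM over the 4 times, on the log2 scale, is plotted for each probe of the 15 genes with another probe above the cut-off, with chosen probes as filled circles and other probes as open diamonds. Most diamonds lie below 0, and those of LIMS1, MACROH2A1, SEPTIN5 and RCBTB2 near 0 lie far from their circles.

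Some of the genes neighbour each other in the genome. On chromosome 22, SEPTIN5 (chr22:19714503-19723319, GRCh38.p14), TBX1 (chr22:19756703-19783593) and RTL10 (chr22:19846146-19854874) lie within 250 kb of one another. RTL10 lies inside the span of GNB1L. Of the 5 other tested genes in that window, CDC45 differed by -0.63 (limma adjusted p = 0.0486) and GNB1L by -0.76 (limma adjusted p = 0.0363). TANGO2 (-0.38), TXNRD2 (0.13) and DGCR8 (0.15) did not pass (limma adjusted p = 0.134, 0.598 and 0.553). On chromosome 7, SNHG15 (chr7:44983023-44986696) and CCM2 (chr7:44999746-45076470) are separated by 13050 bases, and the 6 other tested genes within 250 kb had differences from -0.31 to 0.16, none past the limma threshold (1 at an unadjusted p under 0.05). Chromosome 22 held 4 of the 49 genes (8.16%) and 2.49% of all tested genes, a description with no test.

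**Figure D5:**
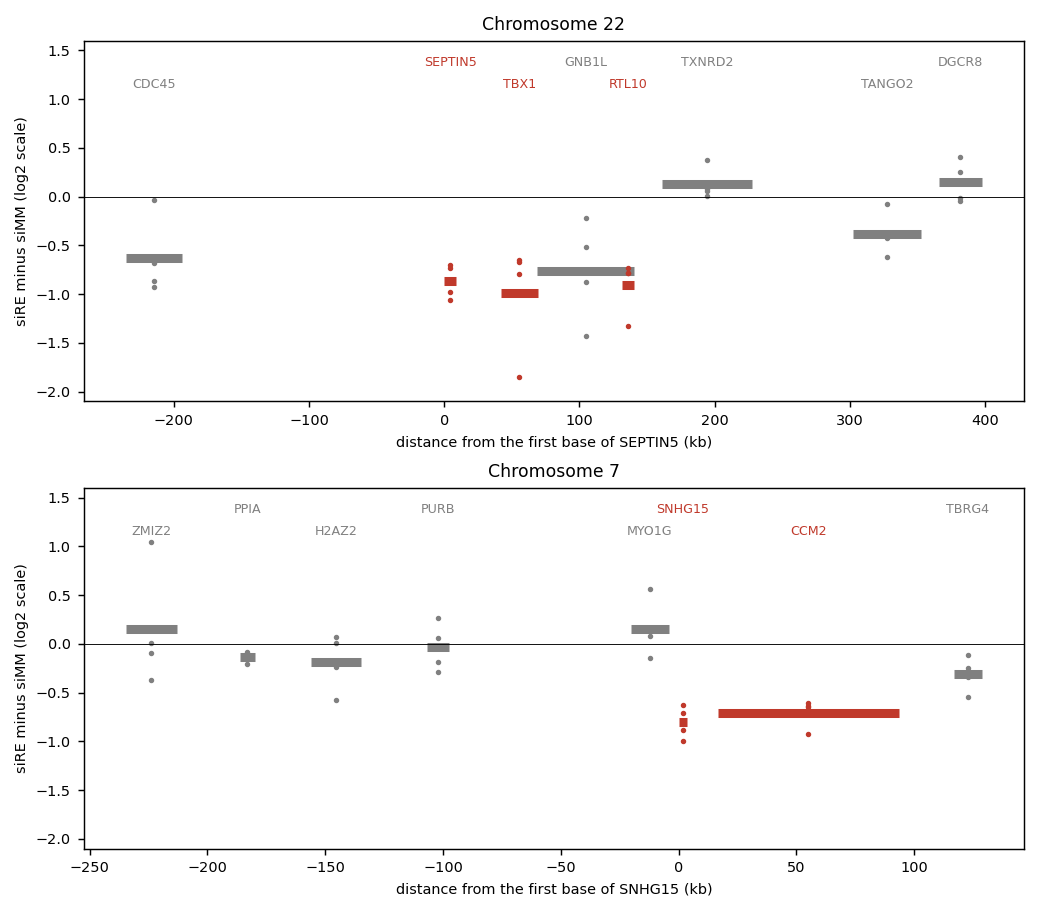
For the 2 places where chosen genes are neighbours, the difference siRE minus siMM on the log2 scale is plotted against the distance in kb from the first base of SEPTIN5 (upper panel) or SNHG15 (lower panel). Bars span each gene at its mean, dots are the 4 times, and chosen genes are red. On chromosome 22 CDC45, GNB1L and TANGO2 also lie below 0 while TXNRD2 and DGCR8 lie above it. On chromosome 7 SNHG15 and CCM2 lie below -0.6 at every time, as the rule required, and the means of the other genes lie between -0.31 and 0.16.

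RUNX factors bind DNA at TGTGGT or TGCGGT, so RefSeq promoters (250 bases before to 50 after the start site, GRCh38.p14) were searched on both strands for these letters. Promoters were at hand for 35 of the 49 genes, and 5 of the 35 (14.3%) held a RUNX motif, against 19.1% of 7233 promoters of tested genes and 19.4% of all 27305. The 5 are shown because they are the promoters of the set that carry it, 5′ to 3′ on the gene's strand, with the motif or its reverse complement in capitals. PLCXD1 (chrX:276106-276405, plus strand) has it with its first base 125 bases before the start site. IFI16 (chr1:159008741-159009040, plus strand) has it 58 and 22 bases before, POLE (chr12:132687293-132687592, minus strand) 164 before and ADRM1 (chr20:62302646-62302945, plus strand) 181 before. CCM2 (chr7:44999496-44999795, plus strand) has it 175 and 170 bases before, overlapping by 1 base.
PLCXD1: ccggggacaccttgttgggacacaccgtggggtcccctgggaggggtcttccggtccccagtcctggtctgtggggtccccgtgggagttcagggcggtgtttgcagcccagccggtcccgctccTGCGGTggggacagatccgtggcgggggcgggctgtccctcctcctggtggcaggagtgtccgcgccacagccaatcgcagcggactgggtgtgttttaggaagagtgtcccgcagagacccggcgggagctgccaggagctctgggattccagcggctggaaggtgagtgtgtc
IFI16: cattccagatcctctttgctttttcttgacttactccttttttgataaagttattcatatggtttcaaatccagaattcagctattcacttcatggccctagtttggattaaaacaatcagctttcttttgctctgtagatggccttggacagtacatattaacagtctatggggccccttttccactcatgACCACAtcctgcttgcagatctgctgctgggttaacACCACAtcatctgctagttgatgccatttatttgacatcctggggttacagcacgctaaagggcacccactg
POLE: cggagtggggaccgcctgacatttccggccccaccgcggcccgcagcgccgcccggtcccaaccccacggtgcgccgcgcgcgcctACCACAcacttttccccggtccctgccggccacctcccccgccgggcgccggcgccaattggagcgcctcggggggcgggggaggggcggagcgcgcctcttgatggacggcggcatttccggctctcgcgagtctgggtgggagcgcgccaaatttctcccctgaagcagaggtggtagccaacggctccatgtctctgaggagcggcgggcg
ADRM1: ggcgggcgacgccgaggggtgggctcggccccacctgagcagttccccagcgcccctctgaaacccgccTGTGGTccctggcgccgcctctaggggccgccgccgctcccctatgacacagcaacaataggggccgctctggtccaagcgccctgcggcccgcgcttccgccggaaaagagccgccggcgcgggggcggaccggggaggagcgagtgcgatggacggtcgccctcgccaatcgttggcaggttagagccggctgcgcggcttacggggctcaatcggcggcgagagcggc
CCM2: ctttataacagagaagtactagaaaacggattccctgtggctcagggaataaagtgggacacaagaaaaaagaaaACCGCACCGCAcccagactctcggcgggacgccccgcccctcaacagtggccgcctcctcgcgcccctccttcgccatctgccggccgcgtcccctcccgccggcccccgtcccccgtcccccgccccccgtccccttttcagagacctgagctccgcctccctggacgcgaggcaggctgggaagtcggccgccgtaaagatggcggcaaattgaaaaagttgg

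Among these 5 genes the mean difference ran from -1.63 (PLCXD1) to -0.71 (CCM2), and only PLCXD1 is also among the 15 genes with the largest mean fall. Other letters searched were AP-1 TGANTCA, found in 1 of the 35 promoters (2.86%, against 4.08% of tested genes), and PU.1 GAGGAAGT in 1 (2.86%, against 2.67%). AGATAA, for GATA factors, was in 3 (8.57%, against 4.77%) and the E-box CAGCTG in 6 (17.1%, against 16.8%). The ETS letters CCGGAAGT were in 0 of 35 (9.55% of tested genes) and C/EBP TTGCGCAA in 0 (0.277%). The median GC content of the 35 was 66.7%, against 65% for tested genes and 58.3% for all promoters, and 27 of the 35 (77.1%) had a CpG observed over expected ratio of 0.6 or more, against 84.8% of tested genes. A match describes the letters of this window and not binding, and distal elements were not searched.

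Relatives of the genes, chosen by symbol after the members were seen and read at their brightest probe, did not all share the fall. Beside CCND1 (-1.36), CCND2 fell (-0.76, limma adjusted p = 0.0321), while CCND3 had 0.46 (limma adjusted p = 0.186). Among mTOR complex genes, RPTOR, the subunit that recruits substrates, fell (-1.08, limma adjusted p = 0.00543), as did TELO2, a co-chaperone of mTOR (-0.66, limma adjusted p = 0.0478), beside DEPTOR, while MTOR itself had -0.26 (limma adjusted p = 0.286). Around LIMS1, its partner kinase ILK had -0.02, PARVB had -0.55 (limma adjusted p = 0.0628) and the blood-cell parvin PARVG rose by 0.80 (limma adjusted p = 0.00558). SEPTIN6 fell (-0.72, limma adjusted p = 0.0220), as did CAVIN2 (-0.60, limma adjusted p = 0.0356). The siRE means of CAVIN2 (5.43) and TELO2 (5.75) were under the cut-off, so the sizes of their falls rest in part on values near background. Of the called relatives named here, only CCND2 was in the alternative runs, and its call ended in 4 of 10.

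Other relatives did not pass the test. APOBEC3F had -0.69 (limma adjusted p = 0.0527), APOBEC3D -0.46, APOBEC3B -0.29 and APOBEC3C -0.11, against -1.53 for APOBEC3G at its brightest probe. TCEA1 had 0.26 and TCEA2 -0.35 beside TCEA3 at -1.79. MEF2D had 0.04 and KLF6 -0.51 (limma adjusted p = 0.0627). Of the partners of MIDEAS, HDAC1 had -0.30, HDAC2 -0.20 and DNTTIP1 0.23, and POLE2 had -0.27 beside POLE at -0.84. No other MMP and no other creatine kinase gene had a probe above the cut-off on 2 arrays.

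Pathway lists, chosen with earlier results known, placed the genes among others of their kind. Over all 14644 probes, limma with time as a block called 2.8% lower and 3.27% higher in siRE. Over 8830 genes the median difference was -0.04, with 295 lower (3.34%) and 332 higher (3.76%). One list was meant to hold genes reported high in t(8;21) leukaemia. No source for it was at hand, so whether each gene, LAT2 included, is high in that leukaemia was not checked. Of its 10 tested genes, JUP belongs to the set, and of the other 9 there were 4 lower and 2 higher (median of the 9: -0.16). ST18, a zinc-finger factor, fell (-1.28, limma adjusted p = 0.00401), as did CCND2 (-0.76), while IGFBP7, a secreted growth factor binding protein, rose (1.79, limma adjusted p = 0.000197), as did the adaptor LAT2 (0.98, limma adjusted p = 0.00342). The other 2 lower genes were SIPA1L2 (-0.74) and PLCG1 (-0.65), named after their values were seen.

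Of 11 tested stem and progenitor genes, 0 belong to the set and 3 fell (median -0.45): CD34, the progenitor surface marker (-1.87, limma adjusted p = 0.00958), ID1 (-1.20, limma adjusted p = 0.00929) and SOX4 (-0.53, limma adjusted p = 0.0490). Of 18 tested adhesion, matrix and actin genes, MMP28 and ESAM are in the set, and of the other 16 there were 2 lower, CDH2 (-0.81, limma adjusted p = 0.0140) and PECAM1 (-0.65, limma adjusted p = 0.0181), and 1 higher, ACTN1 (1.00, limma adjusted p = 0.00342). The median of these 16 was -0.04. Of 11 MAPK and Ras feedback genes, DUSP6 is in the set, and DUSP1 (-0.74, limma adjusted p = 0.00717) and DUSP2 (-0.53, limma adjusted p = 0.0384) fell. The exchange factor genes RASGRP2 (1.38, limma adjusted p = 0.000241) and RASGRP3 (0.91, limma adjusted p = 0.00409) rose. The median of the 10 genes beside DUSP6 was -0.27.

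In the metabolic list of 16 tested genes, CKB among them, MTHFD1 fell by 0.54 (limma adjusted p = 0.0445), and the median of the other 15 was -0.35. Among 15 elongation factor genes, TCEA3 included, AFF1 rose by 0.56 (limma adjusted p = 0.0364), and the median of the other 14 was -0.05. None of 6 tested receptor tyrosine kinase and growth factor genes (median -0.12) and none of 11 Notch, Wnt and TGF-beta genes (median -0.08) passed in limma or belongs to the set, and 1 and 3 of them had an unadjusted p under 0.05. Of the 16 pathway genes named for their size, IGFBP7, ST18, RASGRP2 and ACTN1 passed in every alternative run, and the other 12 did not in at least 1. Leaving out the 96 h arrays ended the calls of CCND2 (-0.64), CD34 (-2.05), SOX4 (-0.53), CDH2 (-0.83), PECAM1 (-0.64), DUSP1 (-0.74), DUSP2 (-0.47), MTHFD1 (-0.58) and AFF1 (0.65). Leaving out those of 168 h ended the same calls, at -0.78, -1.61, -0.53, -0.77, -0.56, -0.74, -0.55, -0.60 and 0.50 in that order, and that of ID1 (-1.13). Leaving out those of 48 h ended DUSP2 (-0.52), MTHFD1 (-0.55) and AFF1 (0.53), and those of 240 h ended CCND2 (-0.64), SOX4 (-0.44), MTHFD1 (-0.43) and AFF1 (0.55). LAT2 and RASGRP3 had siMM means of 5.02 and 5.20, under the cut-off, and with values below 5.9 set to 5.9 their differences were 0.16 and 0.30 and not called. That setting also ended the calls of CCND2, CD34, SOX4, DUSP2 (-0.44) and MTHFD1. The call of CD34 ended with a trended and robust error model, those of SOX4, DUSP2, MTHFD1 and AFF1 with no filter or no time block, and that of SOX4 with cyclic loess.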

How the data were processed

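Illumina bead arrays measured biotin-labelled cRNA of 8 Kasumi-1 samples, as the labels' protocols state. Samples were grouped by siRNA (characteristics) and time (titles). The log2 values are those of the authors' deposited normalized table (3.89 to 14.36), whose log base is inferred from this range. Per the submitters' processing notes lumi was used, in a version not named there, and the sources say nothing of background or filters. Sorted values differed by at most 0.0235 between arrays, as after quantile normalization, so none was added here, and a change common to most transcripts would not show. The non-normalized table was left out because its 16 columns could not be matched to samples by any label. Titles carry letters of unknown meaning, and no batch is named.

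The members, lists, roles and tests were chosen with earlier results of these data known. Gene symbols came from the platform annotation, and coordinates and promoters from RefSeq (GRCh38.p14). A bound ("at least") sets the siMM mean against the siRE mean with each array at no less than the cut-off of 5.9. Slopes per arm (4 residual degrees of freedom, 8.55 prior) and siRE minus siMM with time as a block (3 residual, 8.16 prior) were fitted with limma 3.58.1 in R 4.3.3 over all 14644 probes, with Benjamini-Hochberg adjustment at 0.05. All member genes are named, with values on every array for the 15 of largest mean fall, and up to 4 called non-members per list. On simulated data with 14644 probes, 98% of slopes of 0.3 per day in siRE were recovered, with 11 false calls. Smaller slopes were not simulated, and every called member slope except that of FAM171A1 was smaller, so their recovery is not known. Alternatives were other filters, fall sizes, scalings, error models and each time left out.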

Additional observations from a re-analysis of the deposited data

Results flagged for a closer look

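Of 114 groups of 4 arrays (57 probes in 2 arms), 6 had 1 array far from the other 3 by Dixon's test at its 95% critical value of 0.829, and chance flags about 1 in 20 groups. In siMM at 48 h, TCEA3 read 7.34 (the others 7.24 to 7.25) and GPX1 read 11.83 (the others 11.50 to 11.52). In siMM at 96 h, KANK4 read 7.48 (the others 7.07 to 7.13) and SEPTIN5 read 8.88 (the others 8.38 to 8.43). In siMM at 168 h, CD53 (ILMN_2413808) read 6.37 (the others 7.0 to 7.07). In siRE, TRIM8 read 8.56 at 240 h (the others 7.99 to 8.03).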

How the results depend on the processing

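The count of 57 probes followed the size of the fall: 86 at 0.5, 22 at 0.8 and 12 at 1. Leaving out 1 time gave 63 to 169 probes, the highest without the 48 h arrays. Between 47 and 58 were found with no filter, stricter filters, array medians subtracted, cyclic loess or values below 5.9 set to 5.9. The 9 probes called for a siRE slope became 1 with values below 5.9 set to 5.9 and 9, 3, 5 and 2 without 48, 96, 168 and 240 h, and were 6 to 11 otherwise. The siMM slope had 0 calls in every alternative run. Of 889 probes that differed between the arms (410 lower, 479 higher), 465 were called with values below 5.9 set to 5.9 (186 lower, 279 higher), 530 without the time block (215 lower, 315 higher) and 1175, 310, 251 and 595 without 48, 96, 168 and 240 h. The cause was not tested, beyond the fewer arrays and the raised floor themselves. Raising the floor moved the mean difference of MMP28 to -1.58 and of CAVIN1 to -0.49. The other 103 recomputed member means moved by less than their spread, but over all settings they cover only the members of largest mean fall. Outside these, the raised floor moved ARC from -1.35 to -0.17, ABCB1 from -1.0 to -0.08 and CD53 from -1.19 to -0.47. It also moved CYP46A1 from -1.10 to -0.80, PRRT3 from -1.14 to -0.77 and PAG1 from -1.25 to -0.82. These moves exceeded the SD of each gene's differences, and those of the members not named here did not. Of the recomputed pathway gene differences 43 lost their call, 115 kept it and 0 reversed. Signal limits the set at the low end, since 9 of the 57 probes were above the cut-off on no siRE array.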
